A study of Homo sapiens with 9 samples.

Results

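The endothelial glycocalyx is represented here by 10 genes, chosen by symbol: the syndecans SDC1, SDC2, SDC3 and SDC4, the glypican GPC1, perlecan (HSPG2), biglycan (BGN), versican (VCAN), the hyaluronan synthase HAS2 and the hyaluronan receptor CD44. All 10 were found among the 29740 gene symbols of the count table. Of the 14740 genes with enough counts to be tested, 9 were from this group, and HAS2 was the gene left out for low counts.

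RNA was sequenced from HMEC-1, an established human dermal microvascular endothelial cell line, after treatment with trimethylamine N-oxide (TMAO, a metabolite that arises from gut bacteria) and without it. The 3 groups were untreated control (CTRL), 50 µM TMAO for 24H and 50 µM TMAO for 48H, with 3 libraries each. Treated cells were kept in serum-starved medium during TMAO exposure. In the study, untreated cells of the 24H and 48H time-points were combined as 1 control group, and neither labels nor methods say how much of each control library came from which time. Neither TMAO group therefore has a control of its own time, and the effect of TMAO and that of time in the starved medium cannot be told apart. The study's methods describe its data in general as coming from independent experiments, but neither they nor the labels say of these libraries whether replicates were separate cultures, so the p-values measure the spread between these libraries, which may be technical. All groups are of 1 cell line. The total estimated count per library ranged from 29160868 to 30069548 in CTRL, from 32179428 to 36927373 at 24H and from 25205756 to 32563494 at 48H. These totals include ribosomal RNA, and the library with 36927373 counts (24H replicate 1) held 25286319 without it.

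The glycocalyx is the sugar-rich coat on the luminal face of blood vessels. Syndecans and glypicans anchor heparan sulfate chains in the cell membrane, perlecan carries the same kind of chain in the basement membrane, and biglycan and versican carry chondroitin or dermatan sulfate in the matrix. Hyaluronan, a long chain without a protein core, is made at the plasma membrane by synthases, is held at the surface by CD44, and is bound in the matrix by versican and link proteins.

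The endothelial label was checked against 12 marker genes, and all 12 were detected in all 9 libraries. The most abundant marker in each library was CDH5, the cadherin of endothelial junctions, with a mean of 698 ± 61.0 normalised CPM (counts scaled for library size and composition) in CTRL (SD, n = 3). CLDN5, a tight junction gene, was near the bottom of the list at 1.65 ± 0.219 CPM in CTRL. Among 11 fibroblast and mural cell markers, the most abundant was the collagen gene COL1A1 at 678 ± 47.3 CPM in CTRL, while the fibroblast proteoglycan genes DCN and LUM were each at 0 in 8 of the 9 libraries. The T cell gene CD3E was at 0 in 9 libraries and the pan-leukocyte gene PTPRC at 0 in 5. Of the same list of 6 leukocyte markers, the macrophage gene CD68 (18.2 to 22.0 CPM) and the monocyte gene CD14 (0.773 to 1.31 CPM) were detected in all 9 libraries, and LYZ was at 0 in 1.

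A pair of libraries stood apart in ribosomal RNA or epithelial markers before any comparison. In TMAO 24H replicate 1, ribosomal RNA genes took 31.5% of the counts. They took 3.42% and 4.32% in the other 24H libraries, 1.64% to 7.46% in CTRL and 2.25% to 4.86% at 48H. In TMAO 48H replicate 3, 4 of 6 epithelial marker genes (KRT5, KRT14, EPCAM and CDH1) were lower than in each of the other 8 libraries. KRT5, a keratin of basal epithelia, was at 4.12 CPM there and at 25.1 to 53.6 CPM elsewhere, and KRT14, its partner keratin, was at 2.23 CPM there and at 18.2 to 35.1 CPM elsewhere. EPCAM, an epithelial adhesion gene, was at 1.25 CPM there and at 6.64 to 9.53 CPM elsewhere, and CDH1, the epithelial cadherin, was at 1.13 CPM there and at 2.78 to 5.13 CPM elsewhere. The other 2 markers were not the lowest there: KRT8, the most abundant of the 6, was at 46.4 CPM and at 45.9 CPM in 48H replicate 2, and KRT19 was at 4.804 CPM and at 4.430 CPM in 48H replicate 2. The chi-square per degree of freedom between the counts of a pair was taken with ribosomal RNA genes included. It was 91.8 and 97.8 between CTRL replicate 3 and CTRL replicates 1 and 2, whose ribosomal RNA shares were 7.46%, 1.89% and 1.64%. The chi-square was 3.75 between CTRL replicates 1 and 2 and 12.1 to 34.5 between 48H libraries. For 24H replicate 1 it was 635 and 600. The part of ribosomal RNA in these values was not tested. Calls of the 10 genes and of the other listed genes that change without TMAO 24H replicate 1 or TMAO 48H replicate 3 are given with the value without that library. Without CTRL replicate 3, calls of the other listed genes are not given.

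VCAN, BGN and HSPG2 were the genes of the group that were lower at 48H than in CTRL with an adjusted p under 0.05, and the sequence immediately upstream of each is shown so that the start region of each gene can be read beside its values. The windows are the 250 bases before the RefSeq gene start in GRCh38.p14, read 5′ to 3′ on the gene's strand, from chr1:21937311-21937560 on the minus strand for HSPG2, chr5:83471494-83471743 on the plus strand for VCAN and chrX:153494730-153494979 on the plus strand for BGN. Of the 10 genes, 8 had an entry in this RefSeq table. Capitals mark matches, on either strand, to the GC box (GGGCGG) or, once in BGN, to the TCF/LEF motif (CTTTGA).
HSPG2 promoter: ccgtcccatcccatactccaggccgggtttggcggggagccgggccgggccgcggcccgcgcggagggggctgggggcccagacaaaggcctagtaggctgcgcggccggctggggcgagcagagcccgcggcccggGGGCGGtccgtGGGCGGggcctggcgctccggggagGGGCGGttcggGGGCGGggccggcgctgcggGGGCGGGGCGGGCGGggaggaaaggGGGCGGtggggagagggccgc
VCAN promoter: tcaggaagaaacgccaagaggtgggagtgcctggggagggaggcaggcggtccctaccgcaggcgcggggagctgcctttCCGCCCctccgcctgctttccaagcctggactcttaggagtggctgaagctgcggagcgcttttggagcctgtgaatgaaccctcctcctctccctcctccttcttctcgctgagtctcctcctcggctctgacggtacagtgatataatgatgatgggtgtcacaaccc
BGN promoter: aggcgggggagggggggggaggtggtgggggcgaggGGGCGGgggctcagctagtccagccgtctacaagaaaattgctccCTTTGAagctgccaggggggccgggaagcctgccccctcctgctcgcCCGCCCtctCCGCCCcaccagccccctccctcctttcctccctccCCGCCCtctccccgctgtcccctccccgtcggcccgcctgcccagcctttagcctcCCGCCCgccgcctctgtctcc

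HSPG2 held 8 GC box matches, some of them overlapping, BGN held 5 and VCAN held 1. The same motif occurred in 42.6% of the 35116 promoter windows of this length. The TCF/LEF motif occurred in 11.2% of them. None of the 3 windows held the TATA box (TATAAA, in 10.7% of windows), the AP-1 motif (TGANTCA, 6.57%), the TEAD motif (GGAATG, 11.9%) or the NF-kB motif (0.527%). These matches describe letters in the window and do not mark binding. The GC content of the windows was 82.8% for HSPG2, 74.0% for BGN and 60.8% for VCAN.

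At 24H, 0 of the 9 tested genes had an adjusted p under 0.05 against CTRL, beside 0.095% of all 14740 tested genes, and DESeq2 likewise gave 0, beside 0.419%. An unadjusted p under 0.05 was reached by 0 of the 9, beside 7.24% of all tested genes. None of these 9 was past 1.4-fold at an adjusted p under 0.05, beside 0.0475% of all tested genes. At 48H, 3 of the 9 had an adjusted p under 0.05 against CTRL, all lower, beside 10.4% of all tested genes in either direction, 5.29% lower and 5.13% higher. DESeq2 gave 5 of the 9, beside 13.5% of the genes it tested. The count was 6 without CTRL replicate 3, beside 8.85% of all genes tested in that fit, and 2 without CTRL replicate 1 (6.38%), CTRL replicate 2 (5.25%) or 48H replicate 2 (4.71%). VCAN was the only gene of the group that also changed by at least 1.4-fold, as did 1.8% of all tested genes. Between 24H and 48H, 4 of the 9 passed, with 3 lower and 1 higher at 48H, beside 7.52% of all tested genes, 3.76% lower and 3.77% higher, and DESeq2 gave 6 of the 9, beside 9.35%. VCAN alone was also past 1.4-fold there, as were 1.7% of all tested genes. The comparisons of 24H and of 48H with CTRL share the same 3 control libraries. The smallest p of an exact permutation test of 3 against 3 libraries is 0.1, and the p-values given are therefore those of the fit across all tested genes by edgeR's quasi-likelihood test with Benjamini-Hochberg adjustment over all of them.

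**Figure D1:**
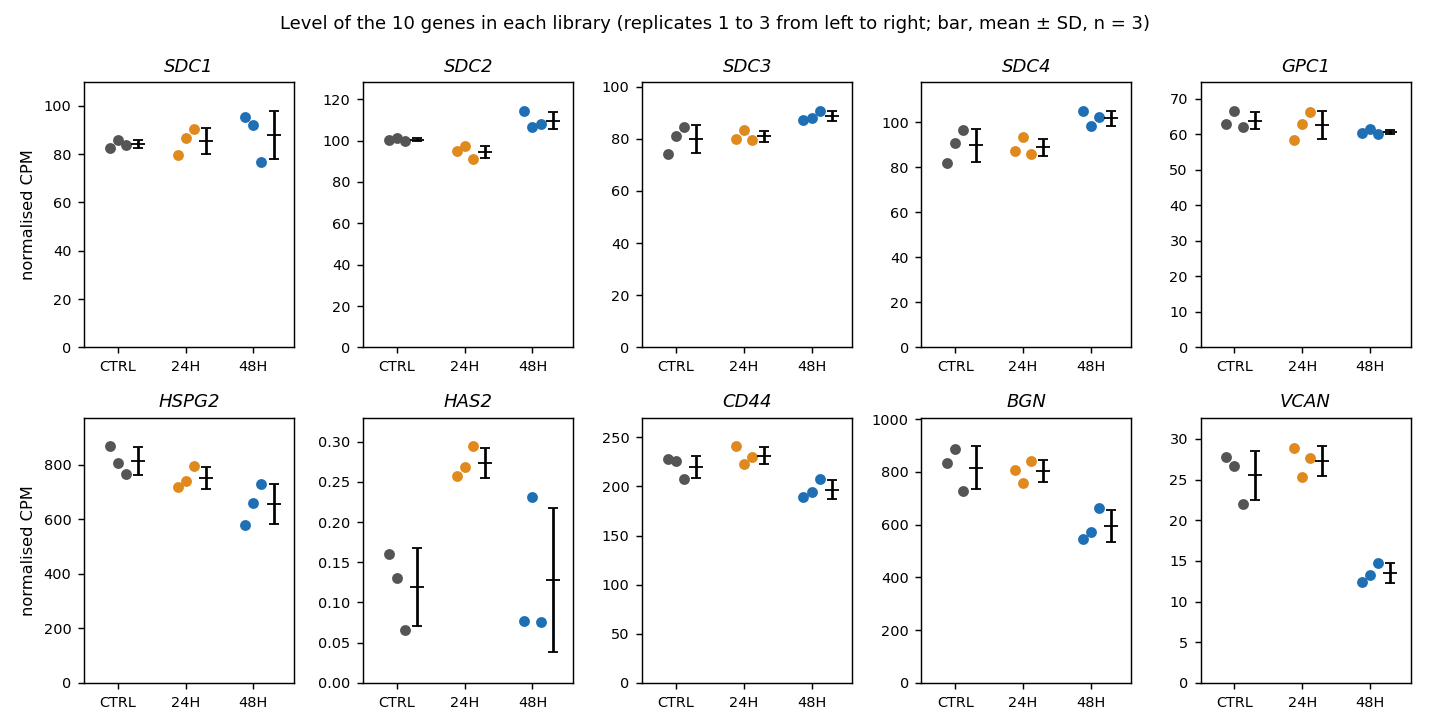
Normalised CPM (vertical axis, from 0, own scale for each gene) of the 10 genes in each of the 9 libraries, with replicates 1 to 3 from left to right in CTRL, 24H and 48H and the mean ± SD beside them. VCAN at 48H sits between 12.4 and 14.8 CPM, under the lowest CTRL library at 22.0.

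**Figure D2:**
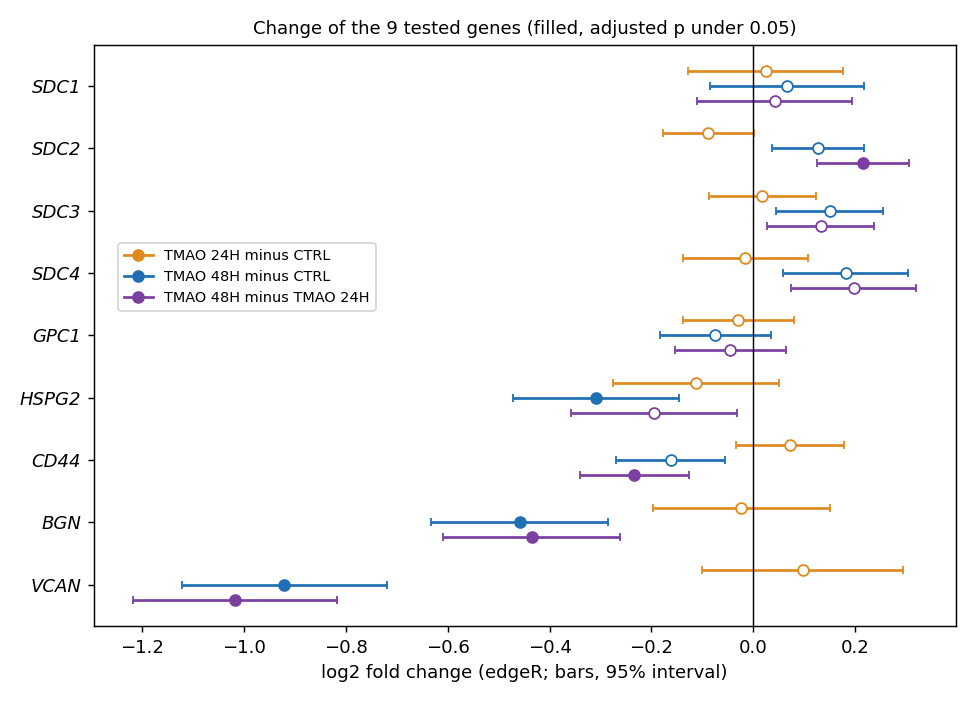
Log2 fold change (horizontal axis) of the 9 tested genes in each of the 3 comparisons with the 95% interval as bars, filled where the adjusted p was under 0.05. VCAN lies farthest from 0 in both comparisons of 48H, and in the comparison of 24H with CTRL no point is filled and HSPG2 lies farthest from 0, at -0.11.

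Heparan sulfate proteoglycans of the cell surface came first. SDC1, the syndecan typical of epithelia and plasma cells, had 82.6, 85.8 and 83.9 CPM in CTRL, 79.6, 86.7 and 90.2 at 24H and 95.4, 91.9 and 76.7 at 48H. The groups overlapped, and the spread was widest at 48H (88.0 ± 9.96 CPM, SD, n = 3), where replicate 3, the library low in KRT5, KRT14, EPCAM and CDH1, was the lowest of all 9. The log2 fold change of SDC1 at 48H against CTRL was 0.07 (95% interval -0.09 to 0.22, adjusted p = 0.610). Without 48H replicate 3 it was 0.16 (adjusted p = 0.0861), and without 48H replicate 1 it was 0.0036 (adjusted p = 0.981). The part of the epithelial markers in the level of SDC1 was not tested.

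SDC2, the syndecan also named fibroglycan, had 100.3, 101 and 99.8 CPM in CTRL, 94.9, 97.4 and 91.2 at 24H and 114, 106 and 108 at 48H. Every 24H library was lower than every CTRL library and every 48H library was higher, so the group means ran 94.5 ± 3.12, 100.5 ± 0.799 and 110 ± 4.19 CPM (SD, n = 3). At 48H SDC2 was above 24H by 0.22 (SE 0.0417) on the log2 scale, a rise with adjusted p = 0.00643. Against CTRL, the log2 fold change was -0.09 at 24H (95% interval -0.18 to 0.0015, adjusted p = 0.699) and 0.13 at 48H (0.04 to 0.22, adjusted p = 0.0698), so neither comparison with CTRL passed.

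SDC3, a syndecan best known from the nervous system, had 74.2, 81.2 and 84.3 CPM in CTRL, 79.7, 83.2 and 79.7 at 24H and 87.3, 87.9 and 90.7 at 48H. The 48H libraries were all above those of CTRL and of 24H. The log2 fold change at 48H was 0.15 (SE 0.0487, adjusted p = 0.0669) against CTRL and 0.13 (adjusted p = 0.125) against 24H. Against CTRL it passed in 3 of 19 alternative analyses, among them a correction for GC content (0.22, adjusted p = 0.00937), and against 24H in 1 of 19 (the GC correction, 0.17, adjusted p = 0.0340).

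SDC4, the syndecan of focal adhesions, had 82.1, 91.0 and 96.6 CPM in CTRL, 87.3, 93.3 and 86.1 at 24H and 105, 98.4 and 102 at 48H. Here too the 48H libraries were all above the others. The log2 fold change was 0.18 (SE 0.0569, adjusted p = 0.0600) against CTRL and 0.20 (adjusted p = 0.0534) against 24H. The comparison with CTRL passed in 2 of 19 alternatives, DESeq2 (adjusted p = 0.0360) and the fit without CTRL replicate 3 (adjusted p = 0.0256). The comparison with 24H passed in 5 of 19, with adjusted p-values of 0.0265 to 0.181 over the 19.

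GPC1, the glypican held in the membrane by a lipid anchor, had 62.9, 66.7 and 62.2 CPM in CTRL, 58.5, 63.0 and 66.4 at 24H and 60.4, 61.5 and 60.2 at 48H. Although the 48H libraries were all under those of CTRL, the gap was small. The log2 fold change at 48H was -0.08 (95% interval -0.18 to 0.03, adjusted p = 0.379), and it was 0.05 after the GC correction.

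HSPG2 encodes perlecan, a large heparan sulfate proteoglycan of basement membranes. It had 868, 806 and 765 CPM in CTRL, 720, 739 and 797 at 24H and 581, 661 and 729 at 48H. All 48H libraries were lower than all CTRL libraries, while 24H overlapped with both. HSPG2 fell at 48H by 0.31 on the log2 scale (SE 0.0755, adjusted p = 0.0209), to 0.808 of the CTRL level, and the change against 24H was -0.20 (adjusted p = 0.146), which passed in 2 of 19 alternatives, DESeq2 (adjusted p = 0.0406) and the fit without 48H replicate 3 (-0.28, adjusted p = 0.0374). The call at 48H against CTRL was lost in 5 of 19 alternatives, with adjusted p-values of up to 0.230. Among them were the GC correction (-0.20, adjusted p = 0.139) and the fits without CTRL replicate 1 (adjusted p = 0.0861), without CTRL replicate 2 (adjusted p = 0.0645) and without 48H replicate 2 (adjusted p = 0.0724). The exons of HSPG2 share 2121 bases with LDLRAD2 on the opposite strand, whose mean was 5.82 CPM in CTRL and 3.56 CPM at 48H (adjusted p = 0.108). Whether counting used strand is not given in the sources used here, so reads of HSPG2 and LDLRAD2 in the shared bases cannot be told apart.

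The matrix proteoglycans held the largest differences of the group at 48H. BGN encodes biglycan, a small leucine-rich proteoglycan that binds collagen. It had 833, 888 and 726 CPM in CTRL, 808, 758 and 841 at 24H and 547, 571 and 662 at 48H. The 48H libraries were lower than all 6 others, and those of CTRL and 24H overlapped. BGN fell by 0.46 on the log2 scale at 48H against CTRL (SE 0.0804, adjusted p = 0.00354), to 0.728 of the CTRL level, and by 0.44 against 24H (SE 0.0804, adjusted p = 0.00462). BGN passed the test in both comparisons under 19 of 19 alternative analyses, with log2 fold changes of -0.54 to -0.38 against CTRL.

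VCAN encodes versican, a large chondroitin sulfate proteoglycan that binds hyaluronan through its end domain. It had 27.8, 26.7 and 22.0 CPM in CTRL, 28.9, 25.3 and 27.7 at 24H and 12.4, 13.2 and 14.8 at 48H. The highest 48H library was under the lowest library of either other group, and those of CTRL and 24H overlapped. VCAN fell by 0.92 on the log2 scale at 48H against CTRL (SE 0.0929, adjusted p = 7.50e-05), to 0.528 of the CTRL level, and by 1.02 against 24H (SE 0.0930, adjusted p = 2.13e-05). At 24H the log2 fold change against CTRL was 0.10 (95% interval -0.10 to 0.29, adjusted p = 0.900). Of all tested genes, 0.733% had a lower log2 fold change at 48H against CTRL. VCAN passed in both comparisons under 19 of 19 alternatives. The exons of VCAN share 453 bases with the antisense gene VCAN-AS1, which has no row in the count table.

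Among the hyaluronan genes, HAS2, one of the enzymes that extend the hyaluronan chain, had very few counts. Its rounded counts per library were 5, 4 and 2 in CTRL, 7, 9 and 10 at 24H and 2, 8 and 2 at 48H. On the normalised scale HAS2 was at 0.160, 0.131 and 0.0662 CPM in CTRL, 0.258, 0.268 and 0.294 at 24H and 0.0765, 0.232 and 0.0757 at 48H. Every 24H library was above every library of CTRL and of 48H, and those of CTRL and 48H overlapped. Summed over 3 libraries, HAS2 had 11 counts in CTRL (exact Poisson 95% interval 5.49 to 19.7), 26 at 24H (17.0 to 38.1) and 12 at 48H (6.20 to 21.0). These intervals cover counting error only. When the filter on low counts was removed, HAS2 at 24H against CTRL had a log2 fold change of 1.17 (SE 0.588, adjusted p = 0.861 over the 21216 genes then tested, unadjusted p = 0.0632). The exons of HAS2 share 201 bases with the antisense gene HAS2-AS1. HAS2-AS1 was at 0 CPM in CTRL, 0.0294 to 0.0368 at 24H and 0 to 0.0290 at 48H. Reads of HAS2 and HAS2-AS1 in the shared bases cannot be told apart, since the use of strand is not given.

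CD44 encodes the main cell surface receptor of hyaluronan. It had 228, 225 and 207 CPM in CTRL, 241, 223 and 229.8 at 24H and 189, 194 and 207 at 48H. The 48H libraries were all lower than those of both other groups, although the highest of them (207.1) and the lowest of CTRL (207.4) nearly touched. CD44 was lower at 48H than at 24H by a log2 fold change of -0.23 (SE 0.0495, adjusted p = 0.0111), a fall that was -0.21 (adjusted p = 0.0528) without 24H replicate 1, the library with 31.5% ribosomal RNA, and -0.22 (adjusted p = 0.0558) without 48H replicate 2. Against CTRL the log2 fold change at 48H was -0.16 (95% interval -0.27 to -0.06, adjusted p = 0.0536), and 6 of 19 alternatives placed it under 0.05, DESeq2 (adjusted p = 0.0160) and the fit without 48H replicate 3 (-0.20, adjusted p = 0.0286) among them. The exons of CD44 share 84 bases with the antisense gene CD44-AS1, which has no row in the count table.

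At 48H against CTRL, 8 of the 9 tested genes had groups that did not overlap, 3 above and 5 below, beside 27.8% of all tested genes (14.7% above and 13% below). At 24H this held for 1 of the 9 (SDC2), beside 14.2%. Between 24H and 48H it held for 6 of the 9, with 3 above and 3 below, beside 27.6% (14.7% above and 12.9% below). The median log2 fold change over the 9 genes was -0.08 at 48H against CTRL, beside 0.0040 over all tested genes. SDC1 was the gene whose groups overlapped at 48H.

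Counts of the 10 genes together made up 0.252%, 0.253% and 0.233% of the counts outside ribosomal RNA in CTRL, 0.236%, 0.234% and 0.248% at 24H and 0.195%, 0.205% and 0.222% at 48H. The 48H libraries were lower than all others. BGN and HSPG2 supplied most of this sum, with 35.5% ± 1.81 and 35.5% ± 1.41 of it in CTRL and 31.0% ± 1.10 and 34.3% ± 1.68 at 48H (SD, n = 3).

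Levels between genes were compared per length, as mean CPM per kilobase of the longest annotated transcript (GENCODE release 29), since which transcript the cells use is not known. On this scale BGN led in CTRL with 339.5, at a percentile of 99.5 among tested genes, followed by HSPG2 with 56.8, CD44 with 38.4 and SDC4 with 34.4. SDC2 (26.7), SDC1 (25.6), GPC1 (17.2) and SDC3 (12.5) came next, then VCAN (2.02) and HAS2 (0.0284). Among neighbours in this order, the ranges over the 3 CTRL libraries overlapped only for CD44 and SDC4, where the lowest CD44 library (36.2) was under the highest SDC4 library, so those genes did not differ beyond their spread. BGN, the most abundant per length, and VCAN, the lowest of the tested genes, were both among those that fell at 48H.

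**Figure D3:**
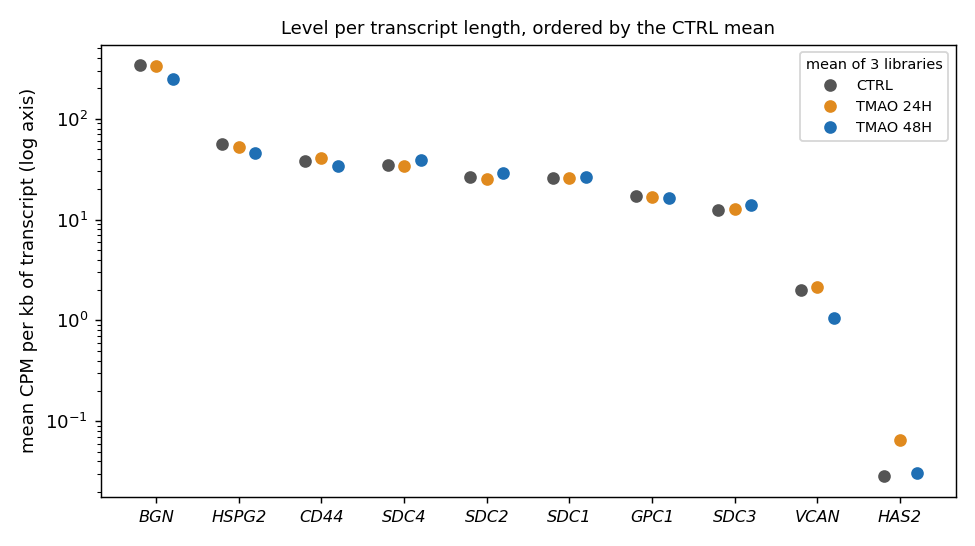
Mean normalised CPM per kilobase of the longest transcript (vertical log axis) for the 10 genes, ordered by the CTRL mean, with 1 point per group as the mean of 3 libraries. BGN is at 339.5 and HAS2 at 0.0284 in CTRL.

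VCAN, the gene of the group with the largest fall at 48H, was compared with the 12329 tested genes of a mean normalised count of at least 50. Over the 9 libraries the log2 CPM profiles most like it were those of LTBP1 (Pearson r = 0.996), HHIP (0.994) and TGFBI (0.993). The points share libraries and group structure, so r is a description. LTBP1 encodes a latent TGF-beta binding protein of the matrix, HHIP a hedgehog-binding membrane protein and TGFBI an adhesion protein of the matrix. TGFBI had 934, 913 and 768 CPM in CTRL, 924, 910.2 and 962 at 24H and 403, 409 and 446 at 48H. As for VCAN, to which TGFBI was matched over these same libraries, its 48H libraries were under all others and CTRL and 24H overlapped.

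**Figure D4:**
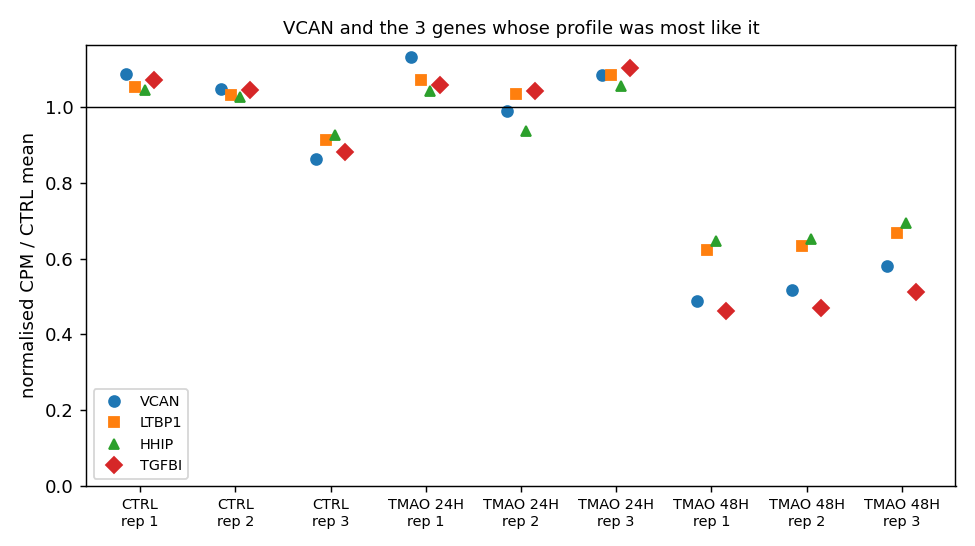
Normalised CPM divided by the CTRL mean (vertical axis, from 0) in each of the 9 libraries for VCAN and the 3 genes most like it. At 48H all 4 genes lie under 1, the CTRL mean, in every library.

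The enzymes that build and trim the chains on these core proteins were read from lists of named genes. At 24H against CTRL, 0 genes passed in any of the 8 lists described here, with edgeR's quasi-likelihood test, and between 0 and 3 tested genes of each list had an unadjusted p under 0.05, beside 0.095% and 7.24% of all tested genes. The highest of these counts were 3 of 11 for heparan sulfate removal and 3 of 17 for other core proteins. At 48H, 1 of the 7 linkage region enzymes rose, FAM20B, the kinase that acts on the xylose of the linkage sugar, with 97.2 ± 3.56 CPM in CTRL and 111 ± 3.07 at 48H (adjusted p = 0.00958). Among all tested genes, 5.13% rose and 5.29% fell at 48H, or 4.6% and 6.09% without 48H replicate 3. Of the 12 tested heparan sulfate polymerases and sulfotransferases, 0 passed at 48H with edgeR, and 2 had an unadjusted p under 0.05, beside 25.8% of all tested genes. Without 48H replicate 3, 1 of the 12 passed, the 2-O-sulfotransferase HS2ST1 (0.21, adjusted p = 0.0457, against 0.18 and 0.0538 with all libraries). Their median log2 fold change was -0.07, and the chain polymerase EXT1 (-0.08, adjusted p = 0.423) and the sulfotransferase NDST1 (0.0063, adjusted p = 0.965) were among them. Of 11 heparan sulfate-removing enzymes, 2 fell at 48H: IDUA, a lysosomal iduronidase, at -0.46 (adjusted p = 0.0274), and SULF1, a sulfatase that acts on chains outside the cell, at -0.22 (adjusted p = 0.0404). IDUA had 8.64, 9.16 and 9.11 CPM in CTRL, 5.30, 5.55 and 6.77 at 24H and 5.66, 7.33 and 6.51 at 48H. All libraries of both TMAO groups were under those of CTRL, and at 24H its log2 fold change was -0.61 (adjusted p = 0.114). HPSE, the heparanase, was at -0.02 (adjusted p = 0.875).

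Of the 15 tested chondroitin and dermatan sulfate enzymes, 3 rose at 48H and 0 fell, beside 5.13% and 5.29% of all tested genes. They were DSE, the epimerase that makes dermatan sulfate (0.33, adjusted p = 0.00797), the sulfotransferase CHST3 (0.20, adjusted p = 0.0142) and the chain polymerase CHSY1 (0.19, adjusted p = 0.0385). Without 24H replicate 1 CHSY1 was also at 0.19, with adjusted p = 0.0544. DSE had 14.9, 15.2 and 16.3 CPM in CTRL, 16.4, 17.1 and 17.1 at 24H and 20.4, 18.8 and 19.0 at 48H. Its 48H libraries were all above the others.

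In the list of hyaluronan synthesis, turnover and binding, 15 of 20 genes were tested, and 4 fell at 48H while 0 rose, beside 5.29% and 5.13% of all tested genes. HAPLN1, a link protein that locks hyaluronan to proteoglycans such as versican, had 49.8, 50.9 and 49.3 CPM in CTRL, 51.0, 48.5 and 47.9 at 24H and 29.5, 27.3 and 28.5 at 48H. The 48H libraries stood far below the other 6, which lay within a narrow range. HAPLN1 fell by 0.81 on the log2 scale (SE 0.0486, adjusted p = 2.09e-06). The others that fell were HAPLN3, a link protein of the same family (-0.47, adjusted p = 0.0181), STAB1, a hyaluronan scavenger receptor (-0.25, adjusted p = 0.0122), and HYAL2, a hyaluronidase (-0.25, adjusted p = 0.00697). HAS3, another hyaluronan synthase, was at 5.37 CPM in CTRL and 5.52 at 48H (0.04, adjusted p = 0.873).

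Of 17 tested proteoglycan core proteins outside the group of 10, 3 fell at 48H and 0 rose, beside 5.29% and 5.13% of all tested genes. Without 48H replicate 3, 1 rose, beside 4.6% of all tested genes. It was TGFBR3 (betaglycan, 0.24, adjusted p = 0.0479), which was at 0.20 (adjusted p = 0.0676) with all libraries. SPOCK1 (testican) fell by 0.60 on the log2 scale (adjusted p = 1.11e-04), COL18A1, a collagen with heparan sulfate chains whose end fragment is endostatin, by 0.38 (adjusted p = 1.90e-04), and THBD (thrombomodulin) by 0.25 (adjusted p = 0.0153). COL18A1 had 613, 619 and 580.4 CPM in CTRL, 569, 583 and 594 at 24H and 450.0, 475 and 466 at 48H. Its 48H libraries were under all others, and agrin (AGRN) was at -0.11 (adjusted p = 0.118).

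Of 13 tested genes of ectodomain and core protein cleavage, 4 fell at 48H and 0 rose, beside 5.29% and 5.13% of all tested genes. Without 48H replicate 3, 5 fell, beside 6.09% of all tested genes. The fifth was ADAM15, a membrane protease (-0.18, adjusted p = 0.0345), which was at -0.15 (adjusted p = 0.0592) with all libraries. MMP2, a gelatinase, had 602, 586 and 504 CPM in CTRL, 566, 564 and 625 at 24H and 247, 264 and 264 at 48H. The 48H libraries did not overlap with the others, and MMP2 fell by 1.13 on the log2 scale (SE 0.0655, adjusted p = 2.09e-06). ADAMTS15, a protease of the family that cleaves versican, fell by 0.61 (adjusted p = 1.12e-04), and the smaller falls were in TIMP1, a protease inhibitor (-0.22, adjusted p = 0.00437), and MMP14, a membrane protease (-0.22, adjusted p = 0.00612). The sheddases ADAM10 (0.07, adjusted p = 0.266) and ADAM17 (0.07, adjusted p = 0.272) did not pass.

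Of 7 tested sialomucins, 2 fell at 48H, beside 5.29% of all tested genes. PODXL (podocalyxin) fell by 0.36 on the log2 scale (adjusted p = 0.00482) and CD34 by 0.20 (adjusted p = 0.0422), whereas endomucin (EMCN) was at 0.0050 (adjusted p = 0.970). Without 24H replicate 1, 1 of the 7 passed at 48H, with CD34 at -0.20 (adjusted p = 0.0534). In that fit, 4.6% of all tested genes were lower at 48H than in CTRL. The median over this list was -0.06. Over all tested genes, 756 rose and 780 fell at 48H.

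**Figure D5:**
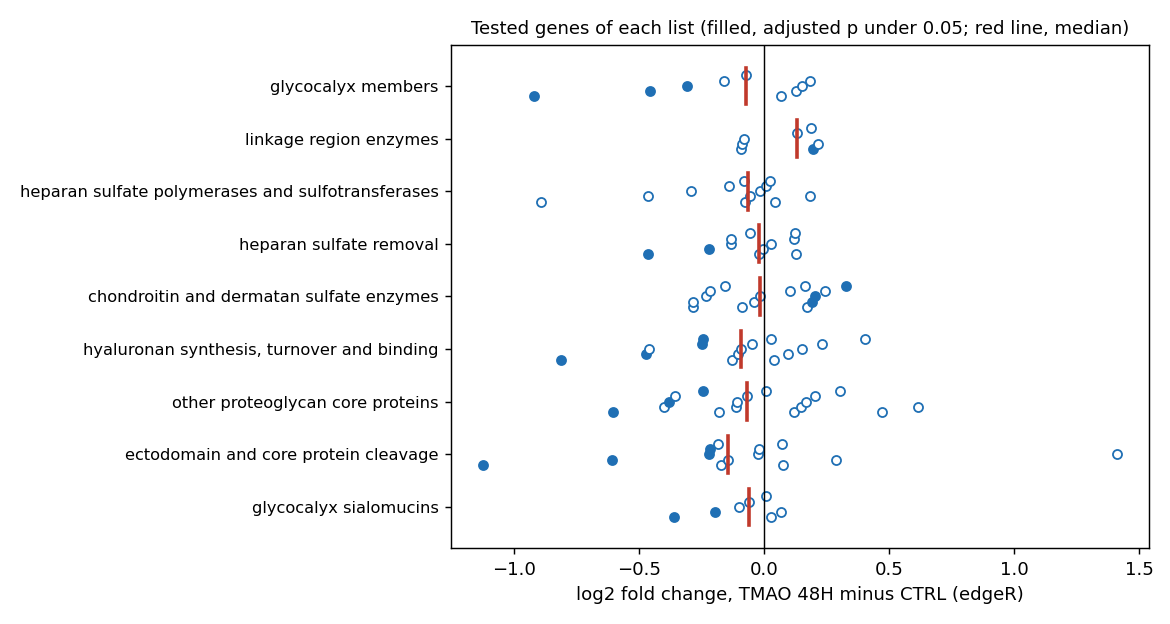
Log2 fold change at 48H against CTRL (horizontal axis) of each tested gene in 9 lists, filled where the adjusted p was under 0.05, with a red line at the list median. Filled points lie at or left of -0.22 in the cleavage list and at or left of -0.25 in the hyaluronan list, and right of 0 in the chondroitin and dermatan sulfate list.

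The marker genes moved at 48H as well. The summed level of the 12 endothelial markers was 2771 ± 153 CPM in CTRL, 2681 ± 66.5 at 24H and 2357 ± 95.9 at 48H (SD, n = 3), and 7 of the 12 fell at 48H while 0 rose, beside 5.29% and 5.13% of all tested genes. Among them CDH5 was at -0.26 (adjusted p = 0.0181) and ROBO4 at -0.33 (adjusted p = 0.00194). At 24H against CTRL, VWF (von Willebrand factor) was at -0.42 (adjusted p = 0.0822), and without 24H replicate 1 at -0.44 (adjusted p = 0.152). Without 48H replicate 3 it was also at -0.42, with adjusted p = 0.0302. That library is in neither group of this comparison and enters it only through the fit over all libraries. Of 9 tested fibroblast and mural cell markers, 3 fell at 48H (COL1A2 by 1.08, FAP by 0.72 and COL1A1 by 0.67 on the log2 scale) and 2 rose (ACTA2 at 0.74 and THY1 at 0.47), beside the same shares. Their summed level was 1082 ± 85.1 CPM in CTRL and 673 ± 31.3 at 48H. In these bulk libraries, fewer cells of a type and less RNA per cell cannot be told apart. The part of these markers in the changes of VCAN, BGN and HSPG2 was not tested.

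The leukocyte markers summed to 21.1 ± 1.41 CPM in CTRL and 22.9 ± 0.674 at 48H, with CD68 the most abundant, and 0 of 2 tested passed or had an unadjusted p under 0.05. The 6 epithelial markers summed to 127, 137 and 160.4 CPM in CTRL, 141, 122 and 137 at 24H and 163, 124 and 59.9 at 48H. The low value was that of 48H replicate 3, and the others overlapped between groups. They included KRT8, the most abundant of them in every library, and at 48H against CTRL 0 of 6 passed or had an unadjusted p under 0.05.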

How the data were processed

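Total RNA of 9 HMEC-1 libraries was sequenced as paired reads. The authors deposited estimated counts (expected counts) per gene symbol, made with the nf-core RNA-seq pipeline and not normalised, and 85.3% of the deposited values were whole (within 5e-04). Trim Galore is named in the submitters' processing notes, while the aligner, the genome build, the annotation and the use of strand are not given in the sources used here. All 9 count columns were matched to a sample by its label, and 0 columns were left unmapped.

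Counts were rounded to whole numbers. Genes with low counts were removed with filterByExpr, library sizes were scaled by TMM, and 1 model over all 9 libraries was fitted with edgeR 4.0.16 (quasi-likelihood test, limma 3.58.1, R 4.3.3), with Benjamini-Hochberg adjustment over 14740 genes. Passing means an adjusted p under 0.05. The fit was tested on simulated data, but the outcome is not given here and no p-value rests on it. The 10 genes were all named, and from each other list up to 4 genes per direction and comparison were chosen by smallest adjusted p. A few genes that did not pass (EXT1, NDST1, HPSE, HAS3, AGRN, ADAM10, ADAM17 and EMCN) and HS2ST1, ADAM15, TEK and PECAM1, whose calls changed without a library, were added after their values were seen. The genes and lists were chosen with earlier results of these data known.

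Alternatives were DESeq2 1.42.0, RLE factors, 2 other filters, the older quasi-likelihood fit, only the compared groups, no ribosomal RNA genes, a replicate block, a GC correction (GC content known for 13241 genes, 89.8%), other fold thresholds and each library left out. List counts without TMAO 24H replicate 1 and with the GC correction, and named genes and list counts without TMAO 48H replicate 3, were added after seeing the data. Lengths and GC content came from GENCODE release 29, and promoters from RefSeq (GRCh38.p14). No 2 libraries of a group held the same values.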

Additional observations from a re-analysis of the deposited data

Results flagged for a closer look

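Because both TMAO groups are set against the same controls, the difference between the 48H and the 24H effect equals the log2 fold change of 48H against 24H, which was tested directly with edgeR. The values below passed this test at an adjusted p under 0.05. They are given with no explanation, and those that do not pass without 24H replicate 1 or 48H replicate 3 are named in the last paragraph.

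Of the 10 glycocalyx genes, VCAN (-1.02), BGN (-0.44) and CD44 (-0.23) were lower at 48H than at 24H, and SDC2 (0.22) was higher. For SDC2 the 3 libraries of 24H all lay under CTRL and the 3 of 48H all lay above it, although neither comparison with CTRL passed.

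Among the enzymes and cores around them, HAPLN1 (-0.79), HAPLN3 (-0.45), HYAL2 (-0.23) and UGDH (-0.16), which makes the UDP-glucuronate used for hyaluronan and the sulfated chains, were lower, and LAYN (0.51), a hyaluronan receptor, was higher. SPOCK1 (-0.69), COL18A1 (-0.33), CHPF (-0.48) and PODXL (-0.36) were lower, and CSPG5 (0.52), TGFBR3 (0.26), CHSY1 (0.24) and FAM20B (0.16) were higher. The proteases and inhibitors MMP2 (-1.18), ADAMTS15 (-0.83), MMP14 (-0.24) and TIMP1 (-0.23) were lower.

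Of the marker genes, ROBO4 (-0.34), KDR (-0.26), TIE1 (-0.22) and ERG (-0.21) were lower at 48H and VWF (0.51) was higher. COL1A2 (-1.06), FAP (-0.85) and COL1A1 (-0.59) were lower, and ACTA2 (0.54) and THY1 (0.36) were higher.

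Of all tested genes, 1109 passed this comparison with all libraries, 652 without 24H replicate 1 and 1052 without 48H replicate 3. Without 24H replicate 1, the library with the highest ribosomal RNA share, 21 of the 31 genes named above passed and 31 kept their sign. The 10 that did not pass were CD44 (-0.21, adjusted p = 0.0528), TIE1 (-0.22, 0.0538), CHPF (-0.51, 0.0602), ERG (-0.21, 0.0613), FAM20B (0.17, 0.0842), HAPLN3 (-0.41, 0.101), LAYN (0.46, 0.120), TGFBR3 (0.21, 0.135), CSPG5 (0.47, 0.147) and UGDH (-0.16, 0.157). Without 48H replicate 3, the library low in KRT5, KRT14, EPCAM and CDH1, 26 passed and 31 kept their sign. The 5 that did not pass were CHPF (-0.50, adjusted p = 0.0555), HAPLN3 (-0.42, 0.0656), FAM20B (0.14, 0.0798), CSPG5 (0.51, 0.0799) and UGDH (-0.13, 0.135). Outside these 31 genes, the endothelial markers TEK (-0.21, adjusted p = 0.0193) and PECAM1 (-0.22, 0.0426) were lower at 48H than at 24H. Without 24H replicate 1 neither passed (TEK at -0.22, 0.0508, and PECAM1 at -0.22, 0.105), and without 48H replicate 3 TEK did not (-0.19, 0.0595). CD34 (-0.19, adjusted p = 0.0644) and HSPG2 (-0.20, 0.146) passed only when 48H replicate 3 was left out, of these 2 libraries (-0.24, 0.0242, and -0.28, 0.0374).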

How the results depend on the processing

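VCAN and BGN kept their fall at 48H, against CTRL and against 24H, and SDC2 its rise against 24H, in 19 of 19 alternatives. HSPG2 at 48H against CTRL missed the threshold in 5 of 19 (log2 fold changes of -0.39 to -0.20 over the 19) and CD44 against 24H in 2 of 19 (-0.27 to -0.21), and the cause was not tested. With DESeq2, 5 of the 9 genes passed at 48H against CTRL in place of 3, and with the 1.4-fold threshold as well, 1 passed there and 1 against 24H. Over all genes, the call at an adjusted p under 0.05 and 1.4-fold gave 7 genes at 24H, 265 at 48H and 251 between them. Without the fold threshold it gave 14, 1536 and 1109, and DESeq2 gave 11 at 24H with the fold threshold and 55 without it. Leaving out each library in turn, the call with the fold threshold gave 0 to 9 genes at 24H, 187 to 339 at 48H and 193 to 257 between them. Without the fold threshold, the same fits gave 0 to 24, 700 to 1594 and 558 to 1282 of all genes. For the glycocalyx genes, also without the fold threshold, they gave 0 to 0, 2 to 6 and 3 to 5. 

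The replicate numbers of the titles did not pair the libraries (r of the deviations -0.12 to 0.09 for 9 same-number pairs, -0.10 to 0.16 for 18 others). With the number as a replicate block, 1 gene was called at 24H, 3 glycocalyx genes passed at 48H against CTRL and 4 against 24H. The shares of all tested genes passing with the block in the comparisons of 48H are not given here. Several small values that did not pass changed sign. With the GC correction, GPC1 was at 0.071 at 24H (0.071 with the block) and 0.052 at 48H (0.053), and BGN was at 0.013 at 24H (0.012). Over the fits that each omit 1 library, the log2 fold changes at 24H against CTRL ran from -0.016 to 0.074 for SDC1, -0.033 to 0.061 for SDC3, -0.077 to 0.042 for SDC4, -0.074 to 0.018 for GPC1 and -0.098 to 0.042 for BGN, and that of SDC1 between 24H and 48H from -0.021 to 0.13.

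Without 24H replicate 1, list counts between 24H and 48H went from 6 to 2 for lower endothelial markers, 4 to 2 for lower and 1 to 0 for higher hyaluronan genes, 2 to 0 for higher core proteins, 1 to 0 for higher linkage enzymes and 1 to 0 for lower chondroitin and dermatan sulfate enzymes, and at 48H against CTRL from 2 to 1 for lower sialomucins and 3 to 2 for higher chondroitin and dermatan sulfate enzymes. Calls also fell over all tested genes. Between 24H and 48H, their share went from 3.76% to 2.28% lower and from 3.77% to 2.1% higher. At 48H against CTRL, it went from 5.29% to 4.6% lower and from 5.13% to 3.93% higher. Without 48H replicate 3, list counts between 24H and 48H went from 6 to 5 for lower endothelial markers, 4 to 2 for lower hyaluronan genes, 2 to 1 for higher core proteins, 1 to 0 for higher linkage enzymes and for lower chondroitin and dermatan sulfate enzymes, and 1 to 2 for lower sialomucins. At 48H against CTRL the list counts went from 0 to 1 for higher core proteins and heparan sulfate polymerases and sulfotransferases and from 4 to 5 for lower cleavage genes. Of all tested genes in that fit, 3.84% were lower and 3.21% higher between 24H and 48H. Against CTRL, 6.09% were lower and 4.6% higher at 48H. With the GC correction, counts at 48H against CTRL went from 2 to 1 for lower heparan sulfate removal, 1 to 2 for higher linkage enzymes, 4 to 3 for lower hyaluronan genes and 3 to 4 for lower core proteins, and between 24H and 48H from 1 to 2 for higher chondroitin and dermatan sulfate enzymes and for lower sialomucins. The share of all tested genes passing with this correction is not given here. Whether these moves were particular to the lists was not tested. HAS2 had 2 to 10 counts per library, a depth at which its counting intervals in CTRL and at 24H overlapped.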
